A study of Mus musculus with 8 samples.

Results

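HECT ligases are a family of ubiquitin ligases that share a catalytic domain at the end of the protein. The genes described here are Ube3b, Ube3c, Herc1, Herc4, Huwe1, Itch, Wwp1, Wwp2, Nedd4 and Nedd4l, 10 relatives of Ube3a that were chosen by family membership. All 10 were listed in both deposited tables, among 13774 genes in the first table and 11773 in the second.

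The libraries came from liver of C57BL/6 mice that had eaten a diet with 42% fat for 8 weeks. The first table holds mice that carried a Ube3a transgene on both homologues and overexpressed Ube3a (TG), with a WT pair. The second holds mice with a knockout and a WT allele of Ube3a (het), with a WT pair of their own. Each of the 4 groups had 2 libraries, and nothing in the labels tells if these were separate animals. P-values therefore measure only the spread between the libraries, which may be technical. All 8 libraries shared the diet, so that no effect of the diet itself can be read from them. The sources used here do not give the age or sex of the mice or the promoter of the transgene. Values are normalised read counts, that is reads per gene divided by a single factor per library, and each mutant pair was set against the WT pair of its own table.

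Ubiquitin reaches a protein through an activating enzyme (E1), a conjugating enzyme (E2) and a ligase (E3), which chooses the protein. A HECT ligase takes the ubiquitin from the E2 onto its own catalytic cysteine and passes it on from there, whereas ligases of the RING type bring E2 and target together without such a step. The genes fall into groups by what precedes the HECT domain. UBE3B and UBE3C are named with UBE3A and carry an IQ motif, HERC proteins carry RCC1-like repeats, HUWE1 is a very large ligase of many nuclear and mitochondrial targets, and NEDD4, NEDD4L, ITCH, WWP1 and WWP2 are NEDD4-type ligases with a membrane-binding C2 domain and WW domains that grip proline-rich motifs. Several of these proteins are known for acting on growth factor receptors, transcription factors or regulators of cell death.

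The feature that defines the family can be read in the genes themselves. The stretches printed here are 36 bases of coding sequence around the codon of the catalytic cysteine, from GENCODE transcripts on GRCm38, with the cysteine codon in capitals. They are shown because this codon, near the end of every coding sequence, is what the 10 genes have in common with Ube3a. Each stretch was placed at the last threonine followed by a cysteine near the end of the coding sequence. Both residues and that position are thus shared by the way the stretch was found.
Ube3a: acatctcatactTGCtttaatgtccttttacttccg
Ube3b: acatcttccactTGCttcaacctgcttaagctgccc
Ube3c: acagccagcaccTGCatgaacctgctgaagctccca
Herc1: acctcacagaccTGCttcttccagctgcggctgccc
Herc4: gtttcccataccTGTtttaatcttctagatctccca
Huwe1: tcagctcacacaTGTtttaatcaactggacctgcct
Nedd4: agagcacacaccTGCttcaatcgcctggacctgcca
Itch: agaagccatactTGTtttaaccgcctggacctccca

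The cysteine codon was TGC in Ube3a, Ube3b, Ube3c, Herc1 and Nedd4, and TGT in Herc4, Huwe1 and Itch. From 32 codons (Ube3a, Ube3b, Ube3c, Herc4 and Itch) to 50 codons (Herc1) followed it before the stop. Against Ube3a, 24 of the 36 bases were the same in Ube3b, 22 in Herc4, Huwe1, Nedd4 and Itch, and 19 in Ube3c and Herc1. Of the 12 codons, 9 encoded the same residue as in Ube3a in Ube3b, Herc4, Itch, Wwp1 and Wwp2, and 7 did so in Ube3c, the fewest among the 10 genes. These counts include the threonine and the cysteine by which the stretch was found. The Ube3a stretch lies within an exon at chr7:59304817-59304852 on the + strand, that of Ube3b at chr5:114419556-114419591 (+), that of Ube3c at chr5:29674456-29674491 (+), that of Herc1 at chr9:66508157-66508192 (+) and that of Herc4 at chr10:63317375-63317410 (+). Those of Huwe1, Nedd4 and Itch cross a splice junction.

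Related genes could in principle share sequencing reads. In the transcript with the longest coding sequence of each gene, no stretch of 50 bases was found in the transcripts of another of these genes or of Ube3a. Such stretches were shared with another gene by Itch (1.77% of its stretches, with Gm16223) and Wwp1 (5.57%, with Gm13416), and by none of the others. Reads of that length from these transcripts can thus tell the 10 genes apart. Exons outside these transcripts and inexact matches were not checked. By start and end, and on either strand, other annotated genes overlap 9 of the 10. Whether their exons overlap too, so that reads could be mixed, was not tested. Ube3c had no such neighbour.

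Ube3a itself was read first, to check the labels. Its normalised counts in the TG table were 1187 and 1359 (WT) and 5991 and 5938 (TG), with a log2 fold change of 2.23 (SE 0.13). In the het table it had 369 and 409 (WT) and 301 and 279.5 (het), with a log2 fold change of −0.42 (SE 0.11). The TG libraries thus held far more Ube3a RNA than their WT pair, and the het libraries less than theirs, with a smaller distance between the groups. limma's adjusted p was 0.0586 in TG and 0.129 in het, so that neither passed at 0.05. Which part of the gene the knockout allele lacks is not stated in the labels, so that the het counts check the labels only in direction.

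Depth was ample for the family. TG-table libraries held 44193275 to 47928229 reads, of which each of the 10 genes had 928 to 19212. Het-table libraries held 13171145 to 17748088, of which each had 306 to 4567. Markers of hepatocytes were present throughout (all 6 of the list, at 0 in no library), as the tissue label says. In TG all 6 lay above WT (median log2 fold change 0.30) with overlapping sums, and in het 2 of 6 did (−0.14). Markers of other cells differed between the groups in part. All 10 endothelial markers lay below WT in TG, with summed values of 14018 to 14100.3 against 16696 to 16755. In het all 10 lay above WT, with sums of 4943 to 5086 against 3879 to 4299. There limma called 2 of them, Lyve1 and Gpr182, against 1.44% of all genes. In a single fit of all 8 libraries it called 0 genes in het. The 10 Kupffer cell and macrophage markers were all lower in TG (sums 19038 to 26190.2 against 29857 to 32005), while in het their sums overlapped (8518 to 11851 against 7443 to 10079). All 6 lymphocyte markers lay below WT in TG (sums 612 to 761 against 786 to 845), and the sums of the 3 measured in het overlapped. Of the 5 cholangiocyte markers 4 lay below WT in TG and 1 was measured in het, with overlapping sums in both tables. No measured marker of any list was at 0. Stellate cell sums overlapped in TG (14399 to 19534 against 14188 to 14828) and in het (4053 to 4197 against 4017 to 4427). In whole liver, fewer cells of a type and less RNA per cell cannot be told apart, and the part of these cells in the values of the ligases was not tested.

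In WT liver the 10 genes differed widely in level. Per kb of annotated exon, Nedd4 was the highest, at 1229 ± 76.0 (SD, n = 2) normalised reads per kb of the TG table, and Nedd4l and Herc1 were the lowest, at 66.9 ± 19.6 and 69.3 ± 3.04. Between them lay, from high to low, Ube3b (808 ± 42.4), Wwp1 (727 ± 91.7), Huwe1 (391 ± 7.02), Itch (366 ± 4.93), Ube3c (278 ± 4.80), Herc4 (215 ± 0.19) and Wwp2 (138 ± 17.3). The WT pair of the het table gave the same order except that Herc1 (17.8 ± 0.53 per kb on that table's own scale) stood below Nedd4l (23.9 ± 8.68). Neighbours whose WT libraries overlapped were Ube3b and Wwp1, and Nedd4l and Herc1, in the TG table, and Huwe1 and Itch, and Nedd4l and Herc1, in the het table. A per-kb level rests on all annotated exons, so that a gene with a long, rarely used exon gets too low a value. Percentiles without regard to length were taken from normalised reads averaged over the WT and TG libraries together. By these the genes lay between 65.2 (Nedd4l) and 96.9 (Nedd4) among all genes in the TG table.

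**Figure D1:**
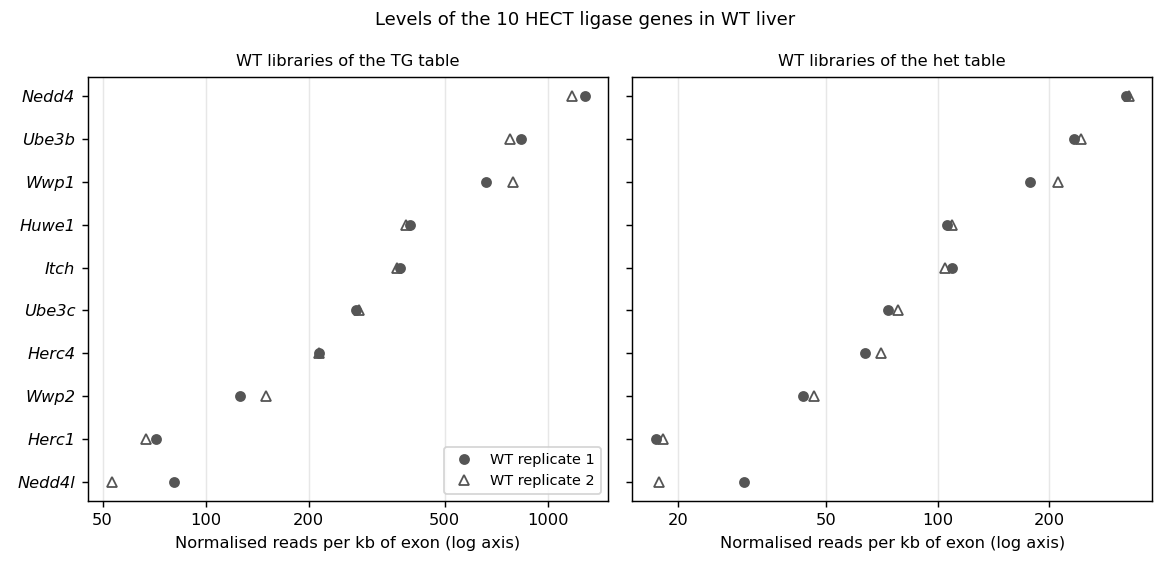
Level of each of the 10 HECT ligase genes in normalised reads per kb of exon (horizontal log axis) in the 2 WT libraries of each table, which have separate scales. Nedd4 was highest in both panels, and the WT libraries of Nedd4l lay farther apart than those of any other gene.

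The main question was whether RNA of the related ligases shifted when the dose of Ube3a did, in particular whether it was higher where Ube3a was lower or lower where Ube3a was higher. None of the 10 genes passed in either genotype. limma, with Benjamini-Hochberg adjustment over all genes of a table, called 0 of 10 in TG, where it called 0% of all genes, and 0 of 10 in het, where it called 1.44%. At an unadjusted p under 0.05 the counts were 0 of 10 in TG and 0 of 10 in het, against 9.12% and 14.7% of all genes. edgeR on the recovered reads called 0 of 10 in each genotype (0% and 1.55% of all genes), and DESeq2 also called 0 of 10 (1.36% and 2.45% of all genes). The adjusted p of the 10 genes ran from 0.602 to 0.977 in TG and from 0.344 to 0.839 in het with limma. With 2 libraries against 2, an exact permutation test of a single gene cannot give a two-sided p below 0.333, so that the tests rest on the spread limma shares across genes.

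In TG the sizes were small beside the change in Ube3a, while in het Nedd4l stood farther from WT than Ube3a did (0.73 against −0.42). In TG the 10 log2 fold changes ran from −0.28 (Ube3b) to 0.28 (Nedd4), with 7 above 0 and a median of 0.10, while the median over all 13774 genes was 0.0014. In het they ran from −0.16 (Itch) to 0.73 (Nedd4l), again with 7 above 0, and had a median of 0.09, against −0.00074 over all 11773 genes. Without regard to sign, the median size was 0.17 in TG and 0.13 in het, a little under that of all genes (0.19 and 0.15). In both genotypes all 10 of the 95% intervals held 0. In TG the intervals reached from 0.612-fold to 1.71-fold, and in het those of the genes other than Nedd4l reached from 0.776-fold to 1.35-fold. Changes within these bounds could not be told from none with 2 libraries a group.

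**Figure D2:**
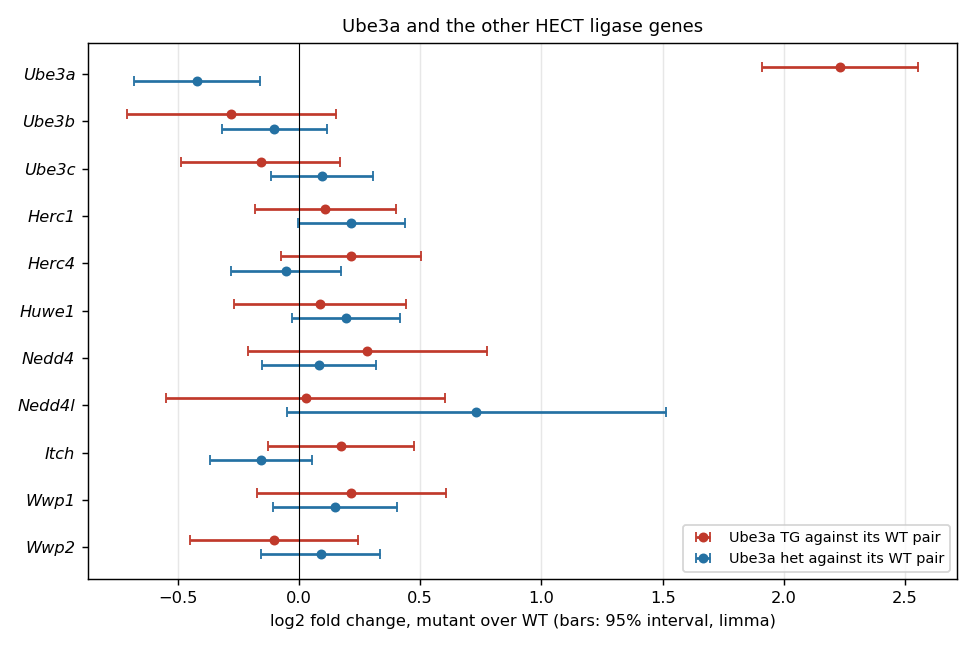
Log2 fold change of Ube3a and the 10 other HECT ligase genes (rows) against the WT pair of the same table, with 95% intervals from limma as bars, TG in red and het in blue, n = 2 libraries per group. Every bar of the 10 genes crosses 0, while both bars of Ube3a lie away from it.

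Read library by library, many of the genes still had separate groups. In TG 7 of 10 genes had groups that did not overlap, as did 43.5% of all genes in that table, 5 of the 7 with TG higher (Herc1, Herc4, Huwe1, Itch and Nedd4) and 2 with TG lower (Ube3b and Ube3c). In het 7 of 10 had groups that did not overlap, as did 48% of all genes, with het higher for Herc1, Huwe1, Nedd4, Nedd4l and Ube3c and lower for Ube3b and Itch. Groups of 2 separate often, as the shares over all genes show, and these counts were not tested. Summed per kb, the 10 genes came to 4315 and 4260.1 (WT) and 4663 and 4573 (TG) in the first table. The second table gave 1178 and 1229 (WT) and 1272 and 1236 (het). The mutant libraries had the slightly higher sums in both tables. In TG that order rested on Nedd4, the most abundant of the 10. Without it, a sum added after the values were seen, WT gave 3033 and 3085 and TG gave 2956 and 3268. Without Nedd4 the het table gave 855 and 901 (WT) and 914 and 906 (het).

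**Figure D3:**
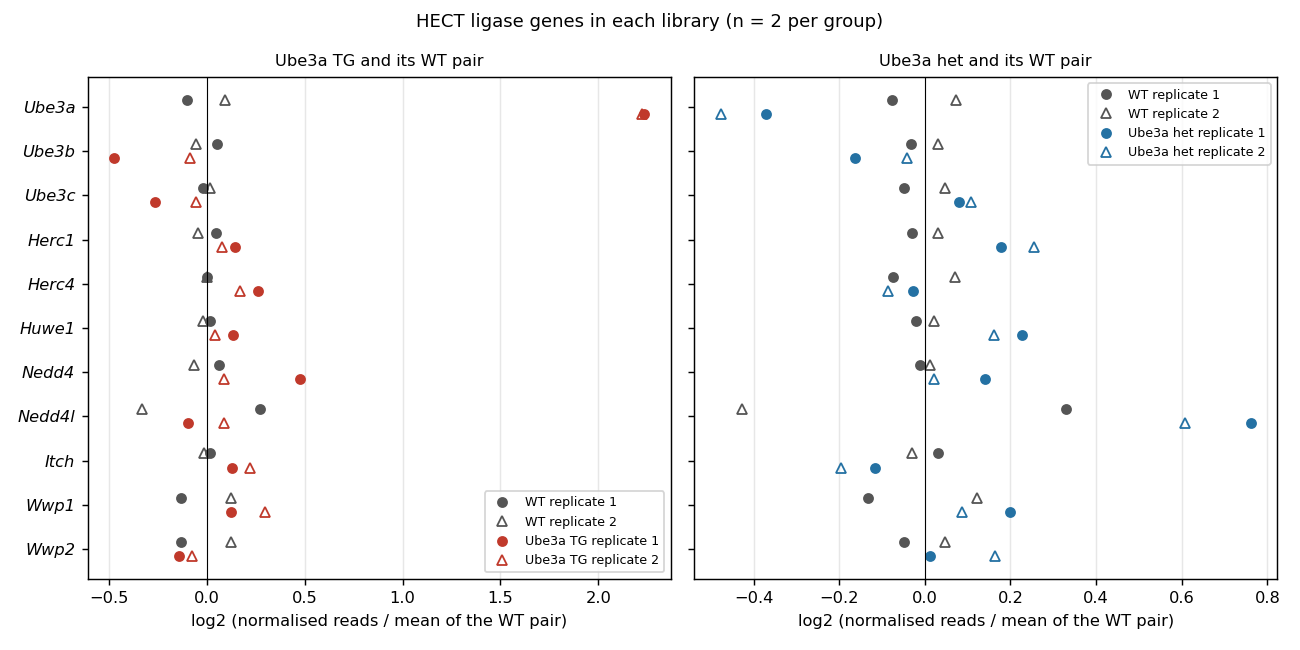
Value of each gene in each library as log2 of its normalised reads over the mean of the WT pair of its table (horizontal axis, separate scales), with WT in grey, TG in red and het in blue, replicate 1 as circles and replicate 2 as triangles. Ube3a stands apart in TG, and the Nedd4l libraries of the het table spread most.

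Ube3b and Ube3c share the name of Ube3a. Ube3b (chromosome 5, 114380607 to 114421169, + strand) encodes a ligase whose loss in humans causes a developmental syndrome with intellectual disability. Gene positions here and below are on GRCm38. Its values were 4434 and 4117 in WT and 3080.5 and 4028 in TG, so that both TG libraries were lower, 1 of them by little (log2 fold change −0.28, SE 0.17, limma's adjusted p = 0.637). The het table had 1237 and 1293 (WT) and 1131 and 1228 (het; −0.10, SE 0.10, adjusted p = 0.663). Both genotypes thus had the lower values of Ube3b, and the TG libraries differed from each other more than the WT libraries did. Ube3b is the gene for which the replicates of TG lay farthest apart among the 10, by 0.39 log2 units, with Nedd4 about level (also 0.39).

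Ube3c (chromosome 5, 29569242 to 29676092, + strand) encodes a ligase that binds the proteasome and lengthens ubiquitin chains on proteins stalled there. Its values were 2624 and 2689 in WT and 2212 and 2560.2 in TG (log2 fold change −0.16, SE 0.13, limma's adjusted p = 0.714). The het table had 700.1 and 747 (WT) and 765 and 779.9 (het; 0.09, SE 0.09, adjusted p = 0.682). Ube3c thus lay below WT in the 2 libraries with more Ube3a and above WT in the 2 with less. The difference of the effects, TG minus het, was −0.25 (SE 0.15, 95% interval −0.59 to 0.09, adjusted p = 0.429), which did not pass.

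The HERC ligases differ in size and role. Herc1 (chromosome 9, 66350450 to 66508775, + strand) encodes a giant protein linked to membrane traffic. Its values were 1961 and 1843 in WT and 2098 and 2004 in TG (log2 fold change 0.11, SE 0.12). For het they were 552 and 582 against 478 and 498 in WT (0.22, SE 0.10, 95% interval −0.0028 to 0.44). Herc1 was higher in all 4 mutant libraries, and it had the smallest adjusted p of the 10 genes in het, 0.344 with limma. Herc4 (chromosome 10, 63243810 to 63317878, + strand), a smaller HERC protein needed for sperm maturation, was at 1876 and 1878 in WT and 2253 and 2110.5 in TG. That difference (log2 fold change 0.22, SE 0.11, limma's adjusted p = 0.602) had the smallest p of the 10 genes in TG. In het the groups of Herc4 overlapped, at 575 and 552 against 557 and 615 in WT (−0.05, SE 0.10).

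Huwe1 (chromosome X, 151800807 to 151935417, + strand) encodes a ligase, 1 among several, of the cell death inhibitor MCL1, of p53 and of MYC. It was at 9311 and 9078 in WT and 10083 and 9451 in TG (log2 fold change 0.09, SE 0.14, limma's adjusted p = 0.849). The WT pair of het was at 2499 and 2573, and het at 2966 and 2838 (0.19, SE 0.10, adjusted p = 0.400). All 4 mutant libraries stood above their WT pair, by less than the intervals can tell from no change.

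Among NEDD4-type ligases, Nedd4 (chromosome 9, 72662346 to 72749852, + strand), which acts on growth factor receptors and their adaptors, was the most abundant. Its values were 14070 and 12891 in WT and 18723 and 14329 in TG, with TG replicate 1 well above the other libraries (log2 fold change 0.28, SE 0.19, limma's adjusted p = 0.666). Those of the het table were 3542 and 3598 in WT and 3936 and 3624 in het (0.08, SE 0.10, adjusted p = 0.757). Nedd4 was above WT in all 4 mutant libraries, in 2 of them by a small margin.

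Nedd4l, known for the turnover of the epithelial sodium channel and of activated SMAD2, was the most variable. In the het table it had 530.4 and 314 normalised reads (WT) and 715 and 643 (het). Both het libraries were above both WT libraries, and the log2 fold change, 0.73 (SE 0.28, 95% interval −0.05 to 1.51, limma's adjusted p = 0.361), was the largest of the 10 genes in either genotype. The WT libraries themselves differed 1.69-fold, against 1.02-fold to 1.19-fold for the other genes in that pair. Without WT replicate 1 the log2 fold change was 1.11 and passed (adjusted p = 0.0179), and without WT replicate 2 it was 0.35 (adjusted p = 0.256), so that the call depended on which WT library was kept. In the TG table the WT libraries of Nedd4l also lay farthest apart among the 10 genes, at 1426 and 938 (1.52-fold), and enclosed the TG libraries at 1107 and 1256. There the log2 fold change was 0.03 (SE 0.23), and it fell below 0 when the 20 most abundant genes were left out of the library totals (−0.0051), with edgeR (−0.0038) and with DESeq2 (−0.0015). The difference of the effects, TG minus het, was −0.70 (SE 0.40, 95% interval −1.66 to 0.25, adjusted p = 0.427). Nedd4l lies on chromosome 18, 64887705 to 65217828 (GRCm38, + strand, ENSMUSG00000024589). Its higher het values stand beside higher endothelial marker sums in het, whose part in them was not tested.

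Itch (chromosome 2, 155133509 to 155226855, + strand) is the ligase whose loss causes inflammation in itchy mice, and it acts on JUN proteins and the cell death regulator CFLAR. Its values were 3584 and 3516 in WT and 3878 and 4133 in TG (log2 fold change 0.17, SE 0.12, limma's adjusted p = 0.666). The het table had 1064 and 1020.1 (WT) and 961 and 909.8 (het; −0.16, SE 0.09, adjusted p = 0.483). Itch thus had the sign of Ube3a in each genotype, above WT in TG and below it in het, and the groups did not overlap in either table. The difference of the effects was 0.33 (SE 0.13, 95% interval 0.02 to 0.64) with an unadjusted p of 0.0382 and limma's adjusted p = 0.273, which did not pass. It had the same sign under every alternative setting run, with adjusted p from 0.251 to 0.572.

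Wwp1 (chromosome 4, 19608303 to 19708993, − strand) and Wwp2 (chromosome 8, 107436365 to 107558595, + strand), a pair of paralogs, had overlapping groups throughout, with WT replicate 2 and TG replicate 1 of Wwp1 about level. Wwp1 was at 4272 and 5109 in WT against 5108 and 5768 in TG, and at 1143 and 1364 in WT against 1438 and 1332 in het (log2 fold changes 0.22, SE 0.15, and 0.15, SE 0.11). Wwp2 was at 1119 and 1336 in WT against 1114 and 1164 in TG, and at 386 and 412 in WT against 402 and 447 in het (−0.10, SE 0.14, and 0.09, SE 0.11). The spread within the WT pairs of Wwp1 was as wide as its distance from the mutants.

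Whether the effects differed between the genotypes was tested directly. In the joint fit of all 8 libraries over 11754 genes, the difference of the effects passed for 0 of 10 genes with limma (0.434% of all genes), for 0 of 10 with edgeR (0.374%) and for 0 of 10 with DESeq2 (3.16%). At an unadjusted p under 0.05 limma gave 1 of 10, Itch, against 16.7% of all genes. The log2 fold changes had the same sign in both genotypes for 6 of the 10 genes (Ube3b, Herc1, Huwe1, Wwp1, Nedd4 and Nedd4l), as they did for 41.3% of all genes. Of the 4 with opposite signs, Itch and Herc4 had the sign of Ube3a in each genotype, and Ube3c and Wwp2 the opposite one. Across the 10 genes, Pearson's r between the TG and het log2 fold changes was 0.03, against −0.32 across all 11754 genes. Genes of the same libraries are not independent points, and r is given as a description.

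The rest of the family was read from a list of 15 further HECT ligases, of which 13 were measured. In TG 10 of 13 lay above WT and 3 below (median 0.10), and in het 9 and 4 (median 0.10). None passed in either, against 0% of all genes in TG and 1.44% in het with limma. The smallest p values in TG were those of Herc2, the ligase at DNA breaks that binds UBE3A (log2 fold change 0.25), Smurf2, a brake on TGF-beta signalling (0.36), and Hectd3 (−0.27), with limma's adjusted p of 0.593, 0.596 and 0.602. In het they were among others those of Arel1, an inhibitor of cell death, and of Hectd2 (0.63, limma's adjusted p = 0.430), which had few reads. Arel1 came closest, at 1004 and 1052 in het against 778 and 822 in WT (0.36, SE 0.09, adjusted p = 0.116). TG gave 1837 and 2479 and its WT pair 2816 and 2496 (−0.31, SE 0.18), the sign opposite to that in het and to that of Ube3a in each genotype. The difference of its effects was −0.67 (SE 0.21, adjusted p = 0.192) and did not pass, nor did those of Smurf2 (0.32, adjusted p = 0.472) and Hectd2 (−0.53, adjusted p = 0.549).

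The partners of these ligases showed little more. Of 14 adaptors and regulators of NEDD4-type ligases, such as NDFIP and ARRDC proteins that bring them to membranes, none passed in TG (8 above WT, median 0.03) or het (10 above WT, median 0.15). The shares of all genes that passed with limma were 0% in TG and 1.44% in het. Arrdc4 had 1055 and 617 (WT) and 1234 and 1143 (TG; 0.56, SE 0.27, limma's adjusted p = 0.595). In the het table Arrdc4 had 359.8 and 290.1 (WT) and 214 and 262 (het; −0.45, SE 0.15, adjusted p = 0.231), and the difference of its effects was 1.00 (SE 0.35, adjusted p = 0.234). Arrdc3 had a log2 fold change of 0.27 in TG (adjusted p = 0.607). In the het table Arrdc3 had 4371 and 2023 (WT) and 710 and 1900 (het), a lower value in het with wide spread in both groups (−1.36, SE 0.81, adjusted p = 0.569). The difference of its effects was 1.62 (SE 0.78, adjusted p = 0.370), the widest of this list. Spg20, which recruits such ligases to lipid droplets, had 0.43 in het (SE 0.11, adjusted p = 0.116). The difference of the effects of Ndfip2 was −0.42 (adjusted p = 0.279). Sgk1, the kinase that restrains NEDD4L, is named here after its values were seen. It was at 334 and 343 in het against 143 and 261 in WT (0.80, SE 0.30, adjusted p = 0.340), and like Nedd4l its WT libraries lay far apart.

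Among 7 E1 and E2 enzymes that serve HECT ligases none passed (0% of all genes did in TG and 1.44% in het). Their medians were 0.01 in TG and 0.03 in het. Uba6, an activating enzyme, had the smallest p in each, with log2 fold changes of 0.25 in TG (limma's adjusted p = 0.652) and 0.33 in het (adjusted p = 0.501). Ube2d3 followed in TG (0.19, adjusted p = 0.772, and −0.057 without WT replicate 1) and Uba1 in het (0.16, adjusted p = 0.503). For the difference of the effects Ube2l3, the E2 of UBE3A, had −0.19 (adjusted p = 0.605) and Uba1 −0.16 (adjusted p = 0.650).

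Proteins known as substrates of these ligases are regulated after translation, and their RNA does not measure that. Of 11 such genes 10 were measured. In TG 9 lay above WT (median 0.19) and none passed (0% of all genes did), with Cflar at 0.34 (limma's adjusted p = 0.563) and Mcl1 at 0.24 (adjusted p = 0.656). In het 1 of the 10 passed, where limma called 1.44% of all genes. Jun, a target of ITCH at the protein level, rose from 75.1 and 107 in WT to 230.1 and 187 (log2 fold change 1.21, SE 0.20, limma's adjusted p = 0.0371). This call was lost when WT replicate 1 (adjusted p = 0.103), het replicate 1 (0.187) or het replicate 2 (0.0796) was left out, without robust estimates (0.0562) and in a single fit of all 8 libraries (0.833). In the TG table Jun had 777 and 1559 (WT) and 325 and 9079 (TG), with the TG libraries on either side of the WT pair. Of the 10, 5 lay above WT in het and 5 below. For the difference of the effects Cflar had 0.44 (adjusted p = 0.240) and Trp53 0.66 (adjusted p = 0.256).

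As a comparison from outside the family, 24 ligases of the RING and RBR types were read. In TG 17 lay above WT (median 0.15) and none passed, against 0% of all genes. In het 9 lay above WT (median −0.03) and 1 passed, against 1.44% of all genes. The gene that passed was Rnf43, a ligase that removes Wnt receptors from the membrane. It fell from 608 and 604 in WT to 356 and 408 in het (log2 fold change −0.67, SE 0.11, limma's adjusted p = 0.0279), and TG gave 1844 and 1692 to 1392 and 1290.3 of its WT pair (0.40, SE 0.12, adjusted p = 0.526). The difference of its effects was 1.07 (SE 0.15, limma's adjusted p = 0.0394). Rnf43 is the 1 gene of these lists for which it passed, against 0.434% of all 11754 genes. The call in het was lost when WT replicate 1 (adjusted p = 0.101), WT replicate 2 (0.068) or het replicate 1 (0.135) was left out, without robust estimates (0.0525) and in the single fit (0.170). The call on the difference held without either TG library (adjusted p = 0.0115 and 0.0383), and was lost without any of the other libraries (0.0894 to 0.183) and without the 20 most abundant genes (0.058). Xiap, an inhibitor of caspases, had 0.31 in TG (adjusted p = 0.542).

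**Figure D4:**
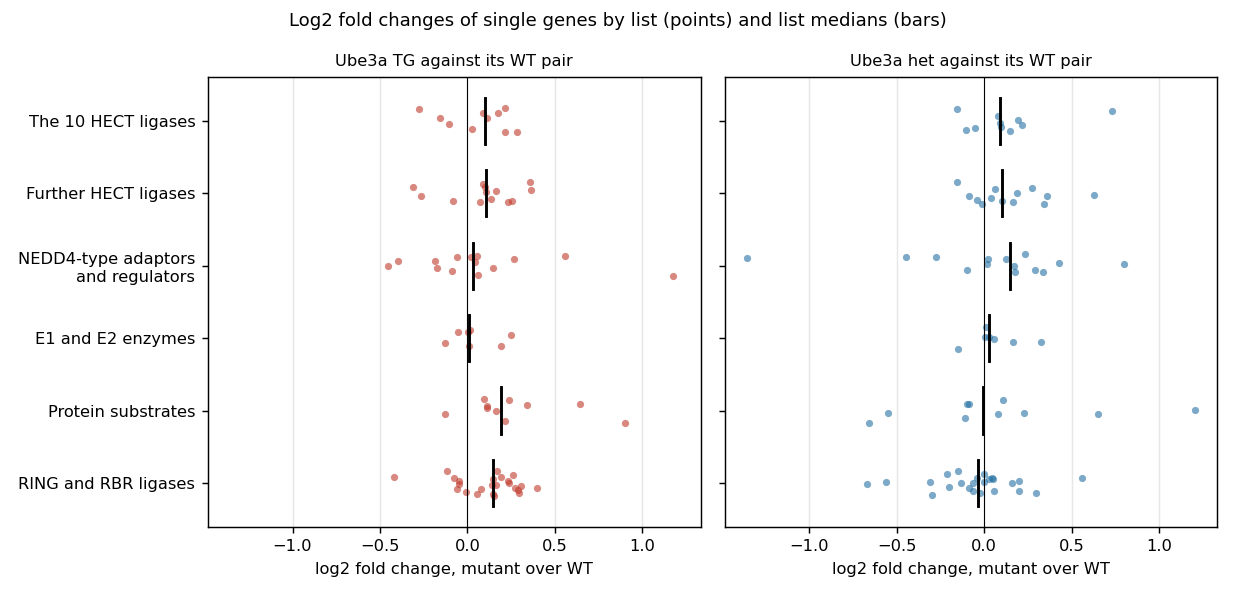
Log2 fold change against the WT pair of the same table (horizontal axis) for each measured gene of 6 lists (points, spread vertically only for legibility), TG in the left panel and het in the right, with a black bar at each list's median. The 10 HECT ligases lie between −0.28 and 0.28 in TG, and in het Nedd4l at 0.73 lies apart from the others.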

How the data were processed

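Liver RNA from 8 libraries was made with TRIzol and a TruSeq kit, per the labels' protocols. Subread 1.5.2, featureCounts, DESeq2 and mm10/GRCm38 appear, with no role stated, in the submitters' processing notes. Annotation, strand setting and sequencing layout are not given in the sources. From the values, the deposited signal is a gene count that the authors divided by 1 factor per library, separately in each table: dividing by the value of a single read gave whole reads for 100% of entries, within 0.001. The lowest mean of a listed gene was 11.2 in the TG table and 17.8 in the het table, and genes below were not analysed here.

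Values were taken to log2(value + 1) and tested within each table with limma 3.58.1 (trend, robust) in R 4.3.3, and a gene was called at a Benjamini-Hochberg adjusted p under 0.05. A fold change on this scale understates the change of low genes. The difference of the effects, (TG − WT) − (het − WT), came from a joint fit over 11754 genes. edgeR 4.0.16 and DESeq2 1.42.0 were run on the recovered reads as alternatives, and the pipeline was tested on simulated data. Rows whose names a spreadsheet had turned into dates (20 in TG, 18 in het) stayed in the tests within tables and out of the joint fit. Lengths and positions came from GENCODE M21 on GRCm38. Replicate numbers did not pair the samples: the labels tie them to nothing shared.

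The 10 genes, the lists and the alternatives were chosen with earlier results of these data known. Named genes were all 10, Ube3a, and of each list the called genes or else the 2 (3 for HECT ligases) of smallest p in each comparison. A gene that this rule selects is not reported here.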

Additional observations from a re-analysis of the deposited data

How the results depend on the processing

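The alternatives were edgeR, DESeq2, pseudocounts of 0.5 and 5, TMM scaling, library totals without the 20 most abundant genes, minimum mean CPM of 1 or 5, no robust estimates, a joint fit of the 8 libraries, a replicate block, and fits without 1 library, whose lone partner is assumed to vary like the others. In TG no alternative called any of the 10 genes, and in het 1 did: without WT replicate 1 Nedd4l passed, so that the count ran from 0 to 1 when a library was left out. For the difference no alternative called any. The number of all genes called was more variable. In TG it was 0, 188 with DESeq2, 25 in the joint fit and 0 to 146 without a library. In het it was 169, 289 with DESeq2, 93 without robust estimates, 0 in the joint fit and 61 to 173 without a library. For the difference it was 51, 371 with DESeq2 and 5 to 643 without a library.

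The median of the 10 genes stayed between 0.07 and 0.13 in TG and between 0.045 and 0.14 in het without a library. The sign turned under some alternative for 6 effects, each of a gene in a given comparison. In TG Nedd4l gave −0.0038 with edgeR, −0.0015 with DESeq2, −0.0051 without the 20 most abundant genes and −0.27 to 0.33 without a library. Without a library Wwp2 in TG ran from −0.23 to 0.025, Ube2d3 in TG from −0.057 to 0.44, Herc4 in het from −0.13 to 0.017, and the differences of Ube3b from −0.37 to 0.017 and of Wwp1 from −0.061 to 0.20. The cause was not tested. With the replicate block limma called 0 genes in TG, 138 in het and 46 for the difference, and 0 of the 10 in each. The correlation of replicate deviations between the groups of a table was 0.14 (TG) and −0.09 (het), across genes. The block ended the calls on Jun in het (adjusted p = 0.0551) and on the difference of Rnf43 (adjusted p = 0.06). It left the call on Rnf43 in het (adjusted p = 0.028). The called markers Lyve1 and Gpr182 were not followed under the block.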
